A study of Homo sapiens with 8 samples.

Results

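The endoplasmic reticulum (ER) folding and disposal machinery was followed in prostate cancer cells as 41 named genes, out of 36474 genes with counts. The members are a list of names, sorted here by what their proteins do. They comprise 16 chaperones and folding factors, 10 oxidoreductases (enzymes that make or rearrange disulfide bonds) and 15 factors of ER-associated degradation (ERAD). Each symbol was found once, and all 41 members passed the filter on low counts, which kept 21071 genes for testing.

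RNA was sequenced from LNCaP cells, an established line from a human prostate carcinoma metastasis, and reads were counted per gene. All cells were plated and then starved for some hours in a medium without serum or calcium. Asporin (ASPN), a protein that stromal cells secrete into the matrix, was then added in recombinant human form at 100 ng/mL. RNA was taken at the start (0 h, 2 libraries) and 12 h and 24 h later (3 libraries each). No library kept for 12 or 24 h without ASPN was analysed here, so ASPN and time in the starvation medium cannot be told apart in any comparison. The libraries are labelled as biological replicates of 1 cell line, which was plated in triplicate wells, so p values measure the spread between such wells. In bulk RNA, fewer cells that express a gene and less transcript per cell cannot be told apart.

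Library totals ran from 73406825 to 96962135 counts, and mitochondrial genes took 6.20% to 7.32% of them. All 8 luminal prostate markers were present, with a summed level of 4332 to 4994 CPM (normalized counts, scaled to the same total in each library). Immune markers summed to at most 0.138 CPM and basal markers to at most 0.229 CPM. Of 5 fibroblast markers in the data, COL1A1 lay at 18.9 to 21.3 CPM and DCN at 0 to 0.0681 CPM. Among endothelial markers VWF lay at 11.2 to 17.3 CPM, while PECAM1 and CDH5 stayed at or below 0.0573 CPM.

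Proteins that enter the ER are bound by chaperones while they fold, and enzymes of the disulfide isomerase family join their cysteines with oxidizing power from the ERO1 oxidases. Proteins that fail to fold are marked by mannose trimming, moved back to the cytosol through a membrane ubiquitin ligase and destroyed by the proteasome. The 3 arms of the unfolded protein response, sensed by ATF6, IRE1 (encoded by ERN1) and PERK (encoded by EIF2AK3), raise transcription of many of these genes when unfolded protein accumulates. Luminal prostate cells secrete large amounts of glycoprotein and rely on this machinery.

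Nearly all of the 41 listed genes were lower after 24 h of ASPN. At 24 h, 40 of 41 members were lower than at 0 h at an adjusted p of at most 0.05 (edgeR quasi-likelihood test, Benjamini-Hochberg over all genes tested), and none was higher. Among all genes tested, 8.49% were lower and 7.82% were higher by this rule. In either direction, 3437 of 21071 genes passed. With only genes of a mean of at least 100 counts, 3534 of 13464 passed, and 40 members were lower. The share that passed was thus larger among genes with more counts. No member was higher at an unadjusted p under 0.05 either, and DESeq2 found 39 lower and 0 higher. Of the 41 members, 12 fell by at least 1.5-fold, against 1.35% of all genes. The median log2 change of the members was -0.43, and that of all genes was -0.0031. The range ran from -0.90 for SEL1L to -0.13 for P4HB.

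As a sum, the members also took a smaller share of the raw counts at the later times. This sum leans on the most abundant members, HSPA5, HSP90B1 and CALR, with 0 h means of 4596, 4032 and 3512 CPM. The 41 members together took 2.51% and 2.36% of all counts in the libraries at 0 h. They took 2.08%, 2.05% and 2.11% at 12 h, and 1.77%, 1.88% and 1.86% at 24 h. The 3 groups did not overlap, and the share was lower at each later time. The 24 h libraries lay wholly below the 0 h libraries for 40 of 41 members, where 43.2% of all genes tested had no overlap in either direction. The exception was FKBP2.

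Libraries of the same group did not lie level. At 0 h, replicate 1 was the higher library for 36 of 41 members, with a median log2 difference of 0.101 from the other library. At 24 h, replicate 1 was the lowest for 38 of 41 members, with a median log2 difference of -0.099 from the mean of the other libraries. With both of these libraries left out, an alternative chosen after seeing the data, 30 of 41 members were still lower at 24 h than at 0 h, 6 of them by at least 1.5-fold, and 0 were higher.

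**Figure D1:**
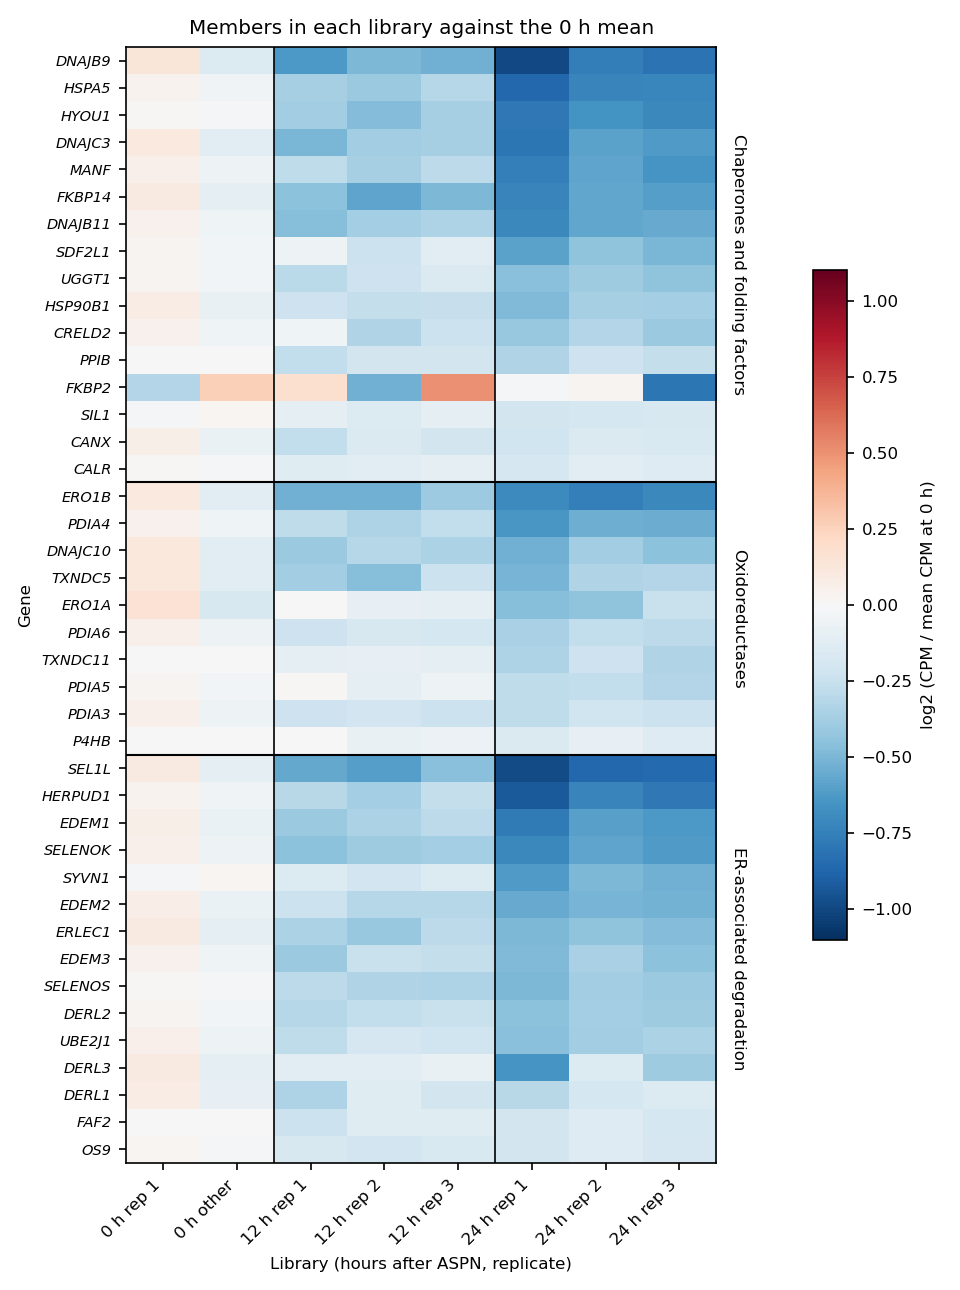
Level of each of the 41 members (rows, grouped by class and ordered by their change at 24 h) in each of the 8 libraries (columns), as the log2 ratio of CPM to the mean CPM at 0 h. Blue is lower and red is higher than at 0 h. Most rows are pale blue at 12 h and darker at 24 h, FKBP2 with 15 to 44 counts a library varies without such an order, and the 24 h replicate 1 column is the lowest of its group for 38 members.

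HSPA5 encodes BiP, the main chaperone of the ER lumen, which also holds the stress sensors inactive (ENSG00000044574.9, chr9:125234853-125241382, GRCh38). It was counted at 4725 and 4467 CPM at 0 h, 3559, 3466 and 3707 CPM at 12 h and 2526, 2786 and 2796 CPM at 24 h. The 3 groups did not overlap. HSPA5 fell by 22.2% at 12 h and fell by 41.2% at 24 h, with log2 changes of -0.36 (SE 0.044) and -0.77 (SE 0.044) and edgeR adjusted p of 1.22e-06 and 1.24e-13. By p, it ranked at 3 among all 21071 genes tested at 24 h. Its part in the members' own counts was also lower, going from 18.6% and 18.8% at 0 h to 14.4%, 14.8% and 15.1% at 24 h.

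HYOU1, a large chaperone of the ER lumen that releases nucleotide from BiP, moved alongside (ENSG00000149428.19, chr11:119044188-119057227). It was counted at 1193 and 1176 CPM at 0 h, 909, 853 and 917 CPM at 12 h and 687, 749 and 725 CPM at 24 h. All 12 h libraries lay below both 0 h libraries, and all 24 h libraries lay below those at 12 h. The log2 change at 24 h was -0.72 (SE 0.043), with an edgeR adjusted p of 2.04e-13. Of the exon bases of HYOU1, 9.77% are shared with a gene on the other strand, and whether the counting used strand is not stated.

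MANF, a secreted factor of the ER that is released when cells are stressed, showed the same order (ENSG00000145050.19, chr3:51385291-51389397). Its levels were 557 and 515 CPM at 0 h, 441, 416 and 438 CPM at 12 h and 319, 358 and 343 CPM at 24 h, without overlap between groups. The log2 change at 24 h was -0.66 (SE 0.047) and the edgeR adjusted p was 1.07e-11. HSPA5, HYOU1 and MANF stayed past the threshold in all 3 comparisons under each alternative setting listed with the methods.

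An ER stress element was first described in the promoters of BiP and related chaperones, so the letters around the start of each member were read. The window ran from 250 bases before to 50 bases after the RefSeq start of transcription (GRCh38.p14), and 37 of 41 members had one. PDIA3, FKBP14, DERL1 and DERL3 were not matched. Searched on both strands were the ER stress element (CCAAT, any 9 bases, CCACG), the second element (ATTGG, any 1 base, CCACG) and the core TGACGTGG. The ER stress element was in 6 of 37 members (16.2%) and in 0.0806% of 27305 promoters. The second element was in 3 members (8.11%) and 0.0549% of promoters, and the core in 4 members (10.8%) and 0.795% of promoters. A match is a run of letters and not a shown binding site. Shown here are matches in HSPA5, HYOU1, ERO1B and HERPUD1, which fell by at least 1.5-fold at 24 h, and in SDF2L1, which fell by less. CALR, which fell little, is shown for contrast. Each is read 5′ to 3′ along the gene's strand with the matched letters in capitals.
HSPA5, chr9:125241381-125241419, minus strand: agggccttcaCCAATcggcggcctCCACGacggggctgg
CALR, chr19:12938374-12938412, plus strand: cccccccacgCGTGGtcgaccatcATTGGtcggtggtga
ERO1B, chr1:236282173-236282208, minus strand: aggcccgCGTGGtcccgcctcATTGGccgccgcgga
HERPUD1, chr16:56932015-56932045, plus strand: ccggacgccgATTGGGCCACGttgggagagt
SDF2L1, chr22:21642104-21642134, plus strand: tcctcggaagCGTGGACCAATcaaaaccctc
HYOU1, chr11:119057264-119057403, minus strand: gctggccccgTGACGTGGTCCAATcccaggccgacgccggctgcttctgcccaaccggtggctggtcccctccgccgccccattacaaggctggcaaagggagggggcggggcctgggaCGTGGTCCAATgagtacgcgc
HSPA5, CALR and ERO1B hold the ER stress element, in the letter order of the gene's strand in HSPA5 and in the reverse order in CALR and ERO1B. HERPUD1 and SDF2L1 hold the second element, and HYOU1 holds it at both ends of the stretch, where the upstream match overlaps a core match. The other members with the ER stress element were HSP90B1, with 2 matches, CANX and CRELD2, and the core was also in DNAJC10, UBE2J1 and TXNDC11. DNAJB9, DNAJB11, DNAJC3, MANF, SEL1L, EDEM1 and SELENOK also fell by at least 1.5-fold at 24 h but held none of the motifs.

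The medians of members with and without a match differed by motif, and none of these differences was tested. At 24 h against 0 h, the 12 members with any of the 3 motifs had a median log2 change of -0.43, and so had the 25 without one. The median was -0.39 for the 6 with the ER stress element and -0.43 for those without it. It was -0.72 for the 3 with the second element and -0.42 for those without, and -0.42 for the 4 with the core and -0.43 for those without. Among the 6 with the ER stress element, the log2 changes ran from -0.77 for HSPA5 and -0.72 for ERO1B to -0.18 for CANX and -0.15 for CALR. Outside the 41 members, 10 tested genes had the ER stress element. Of all 21071 genes tested, 12469 had a promoter window. Among all tested, 8.49% were lower at 24 h and 6.75% at 12 h. Of the 10 genes, 6 fell at 24 h and 0 rose, and 5 were lower and 0 higher at 12 h. The 6 were FICD, which modifies BiP (log2 change -0.81), SERP1 (-0.58), TRIM5 (-0.38), XBP1, the factor made by the IRE1 arm (-0.34), ALG12 (-0.21) and EIF2A (-0.21). ALG12 shares 168 exon bases with the member CRELD2 on the other strand. Of 8 other tested genes with the second element, 3 were lower and 1 was higher at 24 h. At 12 h, 1 of these was lower and 2 were higher. Of 106 with the core, 28 were lower and 5 were higher at 24 h, and 23 were lower and 1 was higher at 12 h.

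The cochaperones of BiP and its partner folding factors were lower too. DNAJB9, a J-domain partner of BiP that acts on the IRE1 sensor, fell furthest among the chaperones. It fell by 44.6% at 24 h, with a log2 change of -0.85 (SE 0.069). Its level was 89.2 and 73.5 CPM at 0 h, 52.4, 57.8 and 56.4 CPM at 12 h and 40.9, 47.9 and 46.5 CPM at 24 h, without overlap between groups. Past 1.5-fold at 24 h were also DNAJC3, the p58 cochaperone that acts on PERK (-0.67), FKBP14, a prolyl isomerase of collagen folding (-0.64), and DNAJB11, a J-domain partner of BiP (-0.61). SDF2L1, a partner of BiP complexes (-0.51), UGGT1, the enzyme that tests glycoproteins for folding (-0.43), and HSP90B1, the ER form of HSP90 (-0.41), fell by less. So did CRELD2, a stress-induced ER protein (-0.38), and PPIB, a prolyl isomerase (-0.27), which shares 26.6% of its exon bases with SNX22 on the other strand.

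The calcium-binding lectin chaperones stood at the other end. At 24 h CALR fell by 9.67% and CANX fell by 11.9%, and SIL1, a nucleotide exchange factor of BiP, fell by 12.4%. CANX was at 1629 and 1482 CPM at 0 h, 1288, 1390.2 and 1351 CPM at 12 h and 1338, 1393 and 1383 CPM at 24 h, so that the 12 h and 24 h libraries overlapped. Without 0 h replicate 1, the 24 h call was lost for CANX (edgeR adjusted p = 0.174) and for CALR (0.0632), and without 24 h replicate 1 also for CALR (0.07).

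FKBP2, an ER prolyl isomerase, had the largest p of its class. Its counts ran from 15 to 44 a library, which is 0.284 and 0.426 CPM at 0 h, 0.402, 0.247 and 0.504 CPM at 12 h and 0.352, 0.362 and 0.204 CPM at 24 h. The groups overlapped, and the 95% interval of the log2 change at 24 h reached from -1.08 to 0.70. A change was thus not detectable at this depth, and 71.0% of its exon bases are shared with another gene on the same strand (ENSG00000286264), so its counts are uncertain. In all, 15 of the 16 chaperones passed at 24 h and 7 fell by at least 1.5-fold, with a class median of -0.47.

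**Figure D2:**
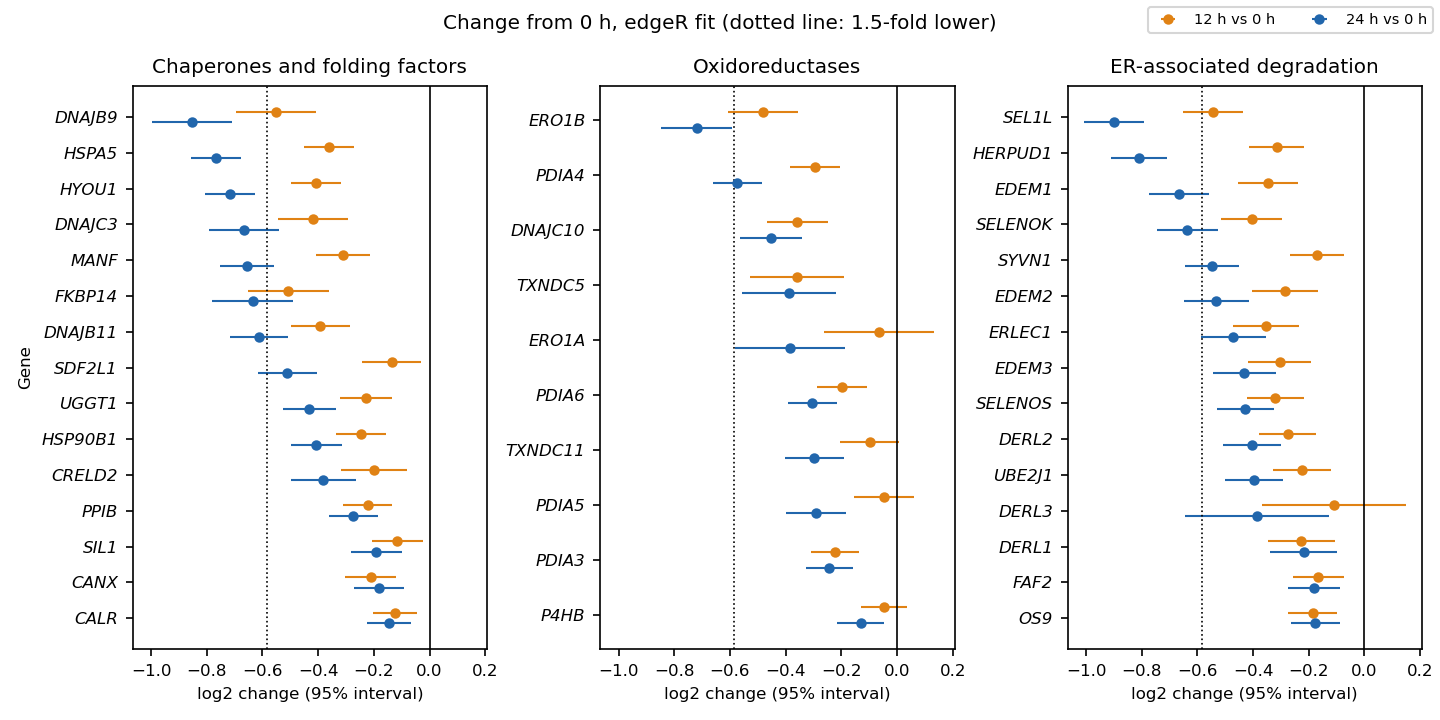
Log2 change from 0 h at 12 h (orange) and 24 h (blue) for each member except FKBP2, whose interval is too wide to draw, in 3 panels by class. Bars are 95% intervals of the edgeR fit, the solid line is no change and the dotted line is 1.5-fold lower. In each panel the 24 h points spread from left of the dotted line to close to 0, and 12 members have their 24 h point beyond the dotted line.

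Among the oxidoreductases, PDIA4 and ERO1B fell most and P4HB least. PDIA4, a disulfide isomerase that works with BiP, was counted at 1172 and 1095 CPM at 0 h, 936, 894 and 939.7 CPM at 12 h and 725, 783 and 777 CPM at 24 h (ENSG00000155660.11, chr7:149003062-149028662). The groups did not overlap, and the log2 change at 24 h was -0.57 (SE 0.044) with an edgeR adjusted p of 3.36e-11. This lies just inside the 1.5-fold line, so that PDIA4 is not among the 12 members beyond it.

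The ERO1 pair, which passes oxidizing power to the isomerases, was lower at 24 h. ERO1B was counted at 57.2 and 49.2 CPM at 0 h, 37.0, 36.9 and 40.4 CPM at 12 h and 32.8, 31.6 and 32.6 CPM at 24 h (ENSG00000086619.14, chr1:236215101-236281958). Its groups did not overlap, and it was the only oxidoreductase beyond 1.5-fold at 24 h, with a log2 change of -0.72 (SE 0.062) and an edgeR adjusted p of 3.11e-10. ERO1A was at 125 and 98.8 CPM at 0 h, 112, 105 and 104 CPM at 12 h and 80.9, 82.2 and 94.5 CPM at 24 h. Its 12 h libraries lay between both 0 h libraries, and its log2 change at 12 h was -0.06 (SE 0.090), which did not pass. At 24 h it fell by 23.3% (edgeR adjusted p = 0.0117), a call lost without 0 h replicate 1 (0.0661), 12 h replicate 1 (0.0908) or 12 h replicate 2 (0.0572) and in the fit of the compared time points alone (0.0898). Whether both genes differ from each other was not tested.

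DNAJC10, a reductase that opens disulfides of proteins bound for disposal, was counted at 309 and 262 CPM at 0 h, 215, 230.1 and 224 CPM at 12 h and 198, 218 and 209 CPM at 24 h (ENSG00000077232.19, chr2:182716255-182794464). Both later groups lay below 0 h and overlapped each other. The log2 change was -0.36 (SE 0.054) at 12 h and -0.45 (SE 0.054) at 24 h, with edgeR adjusted p of 2.78e-05 and 2.73e-07.

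P4HB, the classical disulfide isomerase PDI and the isomerase of the class with the largest p, was counted at 1323 and 1311 CPM at 0 h, 1322, 1243 and 1259.8 CPM at 12 h and 1180.5, 1235 and 1192 CPM at 24 h (ENSG00000185624.16, chr17:81843159-81860856). The 24 h libraries lay below the others by little, and the 12 h libraries overlapped those at 0 h. Its log2 change at 24 h was -0.13 (SE 0.041) with an edgeR adjusted p of 0.0248, and the call was lost when 0 h replicate 1 (0.12), the other 0 h library (0.0647), 24 h replicate 1 (0.124) or 24 h replicate 3 (0.0998) was left out.

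The remaining disulfide isomerases fell by intermediate amounts at 24 h. The log2 changes were -0.39 for TXNDC5, -0.30 for PDIA6, -0.30 for TXNDC11, -0.29 for PDIA5 and -0.24 for PDIA3, the isomerase that works with the lectin chaperones. All 10 oxidoreductases passed at 24 h, with a class median of -0.34. TXNDC5 lost its call without 0 h replicate 1 (edgeR adjusted p = 0.116) and shares 60.9% of its exon bases with the readthrough gene BLOC1S5-TXNDC5. PDIA6 shares 25.2% of its exon bases with ATP6V1C2 on the other strand, PDIA5 shares 12.0% with SEC22A on the same strand, and 2 named pseudogenes of PDIA3 held 0.699% as many counts as PDIA3 itself.

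**Figure D3:**
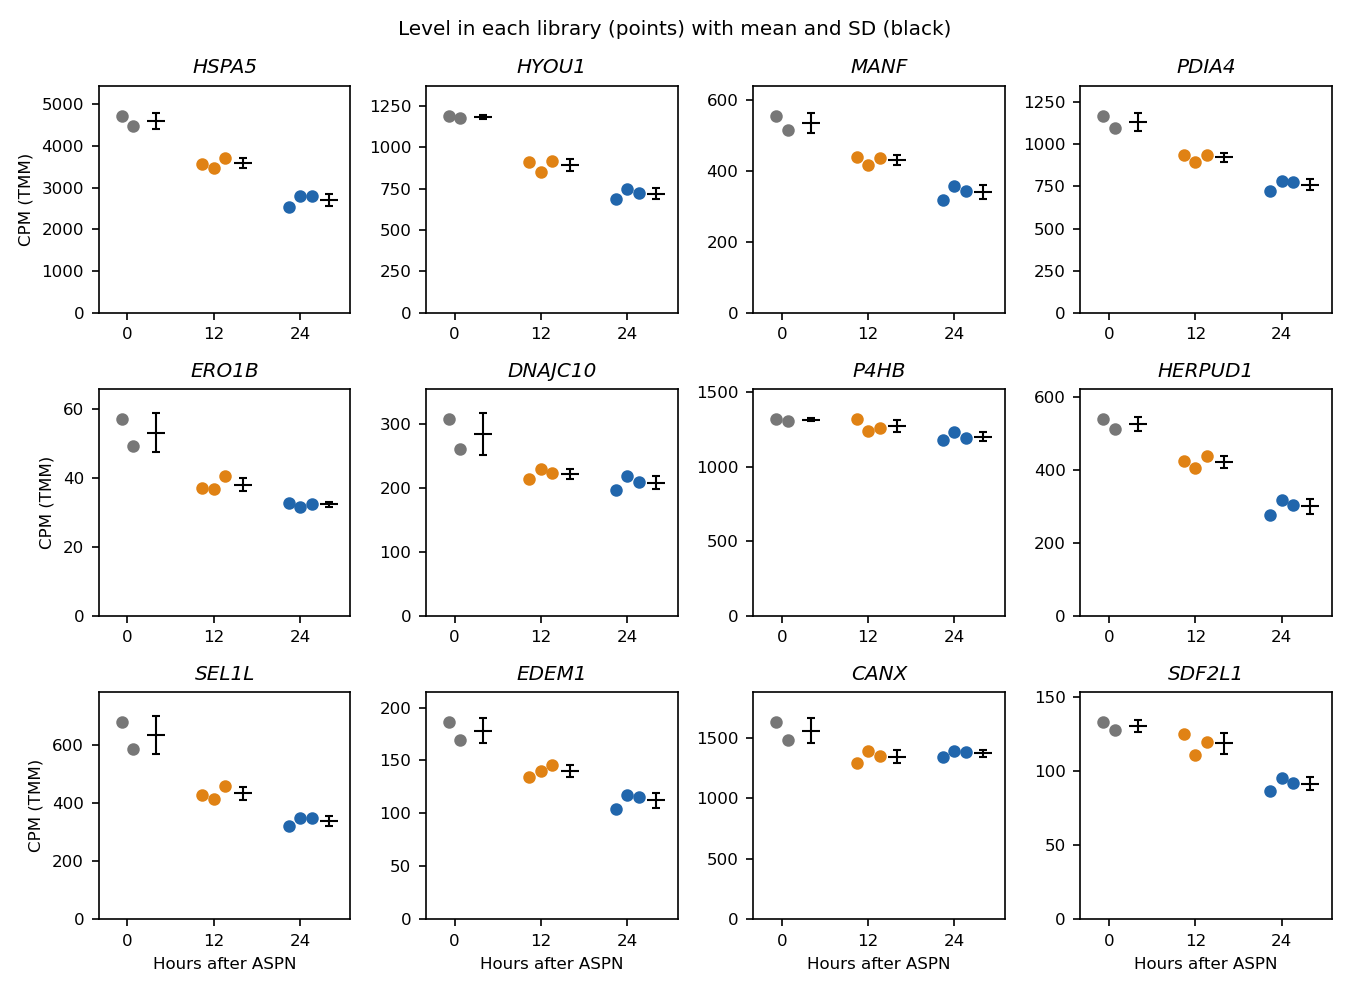
Level in CPM (vertical axes, from 0) at 0, 12 and 24 h (horizontal axes) for 12 members. Each point is a library, and the black mark beside each group is its mean with SD (n = 2, 3 and 3). HSPA5 and HERPUD1 step down at both times, CANX steps down once and SDF2L1 falls mostly between 12 h and 24 h.

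The degradation factors fell too. HERPUD1, a small membrane protein that organizes the retrotranslocation complex, was counted at 541 and 513 CPM at 0 h, 426, 406 and 439 CPM at 12 h and 278, 319 and 305 CPM at 24 h (ENSG00000051108.15, chr16:56932142-56944864). The groups did not overlap. Its log2 change was -0.32 (SE 0.049) at 12 h and -0.81 (SE 0.049) at 24 h, with edgeR adjusted p of 3.24e-05 and 1.85e-13.

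SEL1L, the scaffold that holds the ubiquitin ligase SYVN1 (HRD1), fell furthest of all 41 members (ENSG00000071537.14, chr14:81471547-81533853). At 24 h it fell by 46.4%. It was counted at 678 and 586 CPM at 0 h, 427, 414 and 458 CPM at 12 h and 319, 348 and 349 CPM at 24 h. The groups did not overlap, but both 0 h libraries were far apart for this gene. The log2 change at 24 h was -0.90 (SE 0.053), with an edgeR adjusted p of 2.33e-13, and it ran from -0.997 to -0.795 over the alternatives. SYVN1 itself was at 151 and 155 CPM at 0 h, 137, 132 and 138 CPM at 12 h and 98.9, 108 and 106 CPM at 24 h, with a log2 change of -0.55 (SE 0.047) at 24 h.

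The members of the mannose-trimming and lectin step were lower too. Outside the members, the mannosidase MAN1B1 had a log2 change of 0.065 at 24 h and did not pass. EDEM1, which trims mannose to mark proteins for disposal, was counted at 186 and 169.7 CPM at 0 h, 134, 139.7 and 146 CPM at 12 h and 104, 118 and 115 CPM at 24 h (ENSG00000134109.11, chr3:5187646-5219958). The groups did not overlap, and the log2 change at 24 h was -0.67 (SE 0.053) with an edgeR adjusted p of 6.46e-11. Its relatives EDEM2 (-0.53) and EDEM3 (-0.43) fell by less. Of the lectins that read trimmed mannose, ERLEC1 had a log2 change of -0.47 and OS9 of -0.18. OS9 lost its call without 0 h replicate 1 (edgeR adjusted p = 0.0508) and shares 15.9% of its exon bases with AGAP2-AS1 on the same strand.

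The membrane partners of the exit channel also varied in the size of their fall. The membrane selenoproteins SELENOK (-0.64) and SELENOS (-0.43), which bind derlins, and UBE2J1, the ubiquitin-conjugating enzyme of this pathway (-0.40), fell at 24 h. So did DERL2 (-0.40), DERL1 (-0.22) and FAF2, which recruits the extraction ATPase (-0.18). The derlins line the exit path. Without 0 h replicate 1 the call of DERL1 was lost (edgeR adjusted p = 0.308), as it was without 24 h replicate 1 (0.0799).

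DERL3, another derlin, had the largest p of its class. It was counted at 6.12 and 5.3 CPM at 0 h, 5.23, 5.27 and 5.39 CPM at 12 h and 3.64, 5.13 and 4.34 CPM at 24 h (ENSG00000099958.15, chr22:23834503-23839128). The 24 h libraries were the lowest but spread more widely than the other groups. Its log2 change at 24 h was -0.39 (SE 0.13) with an edgeR adjusted p of 0.0341, and the call was lost without 0 h replicate 1 (0.388), 24 h replicate 1 (0.213) or 24 h replicate 3 (0.0838) and by DESeq2 (0.0505). SMARCB1 on the other strand covers 77.0% of its exon bases. In all, 15 of 15 degradation factors passed at 24 h and 4 fell by at least 1.5-fold, with a class median of -0.43.

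At 12 h most of the listed genes were already lower. Of 41 members, 33 had fallen at an adjusted p of at most 0.05 and 0 had risen, against 6.75% lower and 4.85% higher among all genes. No member was higher at an unadjusted p under 0.05, and DESeq2 found 33 lower and 0 higher. No member had fallen by 1.5-fold, which 0.565% of all genes had, and 3 had without the 0 h library other than replicate 1. The 12 h and 0 h libraries did not overlap for 35 members, against 36.9% of all genes. The class medians of the log2 change were -0.24 for chaperones, -0.21 for oxidoreductases and -0.29 for degradation factors. This count rests in part on 0 h replicate 1. Without it, only the other library was left at 0 h, and fewer genes passed, among the members and among all genes. The class medians of the log2 change were then -0.21 for chaperones and -0.15 for oxidoreductases. In that fit HSP90B1, CALR, CANX, PDIA3, PDIA6, TXNDC5, CRELD2, SYVN1, DERL1, EDEM2, OS9, UBE2J1 and FAF2 lost their calls. Of all members, 17 passed with both 0 h replicate 1 and 24 h replicate 1 left out. Both comparisons with 0 h share the 0 h libraries.

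The comparison of 24 h with 12 h takes neither of its means from the 0 h libraries, which enter its fit through the filter, the normalization and the estimate of spread. Here 20 of 41 members fell further at an adjusted p of at most 0.05 and 0 rose (edgeR; 0 rose at an unadjusted p under 0.05 and 0 by DESeq2), against 1.61% lower and 1.12% higher among all genes. None fell by 1.5-fold, which 0.104% of all genes did. The libraries did not overlap for 28 members, against 19.6% of all genes. The members' median log2 change was -0.20, with class medians of -0.21 for chaperones, -0.15 for oxidoreductases and -0.17 for degradation factors. Without 24 h replicate 1, the lowest 24 h library for most members, 10 of 41 passed. Among all genes, 231 of 20862 passed in either direction in that fit, against 574 of 21071 with all libraries. The members that lost their calls were HSP90B1, DNAJB9, DNAJB11, DNAJC3, ERO1B, TXNDC11, UGGT1, EDEM2, SELENOK and UBE2J1.

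The largest fall in this interval was that of HERPUD1, with a log2 change of -0.49 (SE 0.044) and an edgeR adjusted p of 2.17e-08. HSPA5 (-0.40), SYVN1 (-0.38), SDF2L1 (-0.37), SEL1L (-0.36), MANF (-0.34), EDEM1 (-0.32), HYOU1 (-0.31), PDIA4 (-0.28) and PDIA5 (-0.24) also fell. These 10 members passed in this interval under each of the 15 alternative settings. ERO1B (-0.24, edgeR adjusted p = 0.0144) lost its call without 12 h replicate 3 (0.142) or any of 24 h replicate 1 (0.0607), 2 (0.0997) and 3 (0.0667).

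Read as 2 successive steps, the members fell into 4 patterns. In both steps, 17 members passed, among them HSPA5, HYOU1, MANF, PDIA4, HERPUD1, SEL1L and EDEM1. In the first step alone, 16 passed, among them CANX, CALR, PDIA3, OS9, DERL1 and FAF2. Only SDF2L1, PDIA5 and TXNDC11 passed in the second step alone, and P4HB, ERO1A, SIL1, FKBP2 and DERL3 passed in neither. These 3 members of the second step were named after their values were seen. SDF2L1 was at 133 and 128 CPM at 0 h, 126, 111 and 120.0 CPM at 12 h and 86.7, 95.8 and 92.3 CPM at 24 h. PDIA5 was at 58.8 and 56.5 CPM at 0 h, 58.1, 53.8 and 55.5 CPM at 12 h and 47.5, 47.9 and 46.1 CPM at 24 h. TXNDC11 was at 61.2 and 61.2 CPM at 0 h, 56.8, 57.7 and 57.0 CPM at 12 h and 48.3, 52.3 and 48.8 CPM at 24 h. In SDF2L1, PDIA5 and TXNDC11 the 24 h libraries lay below all others.

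These patterns are not shown to differ by the test of the steps themselves. That test took the second step minus the first step on the log2 scale, and 0 of 41 members passed it (edgeR), where 2.33% of all genes did. At an unadjusted p under 0.05, the second change was less negative than the first in 15 members and more negative in 4. DESeq2 passed 3 members, CANX, PDIA3 and OS9, each with a less negative second change. Among all genes, 719 of 12431 passed this DESeq2 test in either direction. From 12 h to 24 h, the log2 changes were 0.03 for CANX, -0.02 for PDIA3 and 0.01 for OS9, and none of them passed. The difference of the steps was 0.24 (SE 0.072) for CANX, with a 95% interval from 0.10 to 0.39 and an edgeR adjusted p of 0.067. For HSPA5 it was -0.04 (SE 0.072), with an interval from -0.19 to 0.10. The same 12 h libraries enter both steps, with opposite sign. The number that passed ran from 0 to 8 when each library was left out in turn, and was 8 without the 0 h library other than replicate 1.

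**Figure D4:**
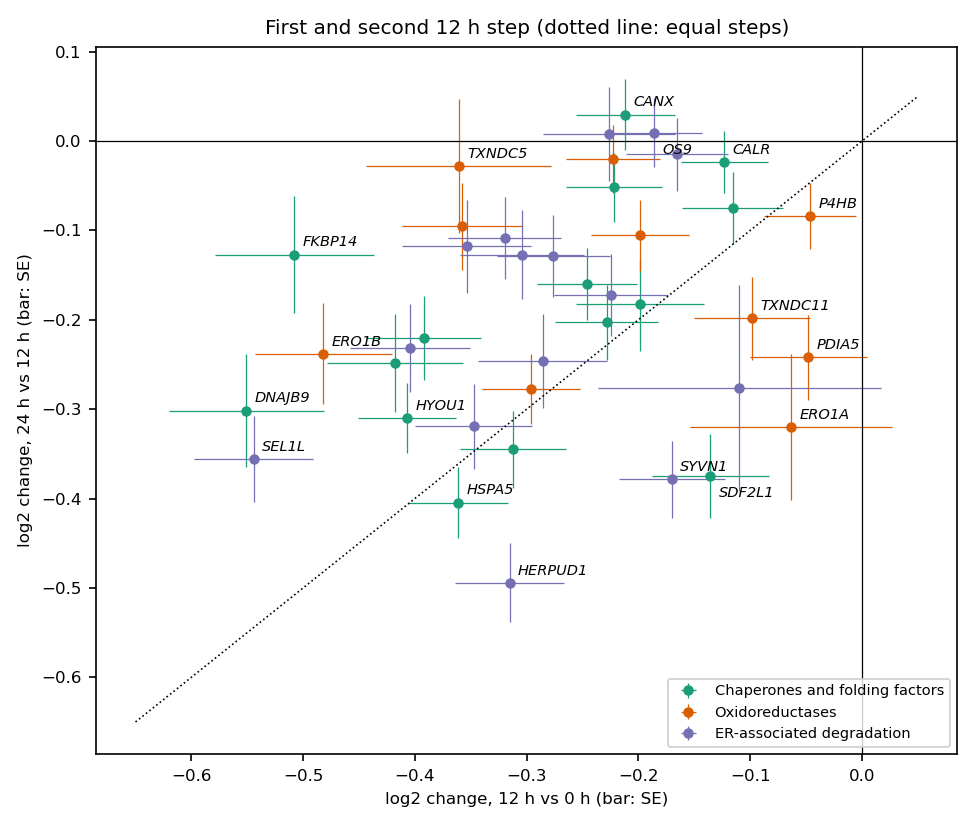
Log2 change from 0 h to 12 h (horizontal) and from 12 h to 24 h (vertical) for each member except FKBP2, coloured by class, with bars of 1 SE of the edgeR fit. The dotted line marks equal steps and the solid lines mark no change. HERPUD1, SYVN1 and SDF2L1 lie below the dotted line, while CANX, OS9 and FKBP14 lie above it, and no member passed the test of unequal steps.

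Other genes of the same compartment fell in part. Of 25 further ER folding genes, 12 were lower at 24 h and 0 were higher, with a median log2 change of -0.15. The 5 furthest down were CLGN, a relative of calnexin (-0.62), the cargo receptor pair MCFD2 (-0.61) and LMAN1 (-0.56), ERP44, which retains ERO1 in the cell (-0.56), and SEC63, a J-domain protein of the translocon (-0.40). Of 24 further degradation genes, 7 were lower and 2 were higher, with a median of -0.02. RHBDD1, a rhomboid protease, was lowest (-0.34), the cytosolic ATPase VCP, which pulls proteins out of the membrane, was at -0.16, and AUP1 (0.18) and TMEM129 (0.15) rose. Whether these lists differ from the members was not tested.

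The sensors and transcription factors of the unfolded protein response were lower as well. Of 10 such genes, 7 fell at 24 h and 0 rose, with a median of -0.33. DDIT3, which encodes the stress factor CHOP, had a log2 change of -0.996, ERN1 one of -0.82, EIF2AK3 one of -0.47 and ATF6 one of -0.32. CREB3L2 (-0.34), XBP1 (-0.34) and ATF4 (-0.30) also fell, while ATF6B (-0.05), MBTPS1 (-0.05) and MBTPS2 (0.01) did not pass.

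Chaperones outside the ER rose in part. Of 25 cytosolic and mitochondrial chaperones, 10 were higher and 2 were lower at 24 h, with a median of 0.10. HSPB1 rose by 0.44 on the log2 scale, HSPH1 by 0.41, DNAJA1 by 0.37, HSP90AA1 by 0.29 and STIP1 by 0.29. The 2 that fell are the mitochondrial chaperones HSPA9 (-0.30) and HSPD1 (-0.16). These lists were chosen with earlier results of these data known, and their counts are descriptions beside the 8.49% lower and 7.82% higher among all genes.

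**Figure D5:**
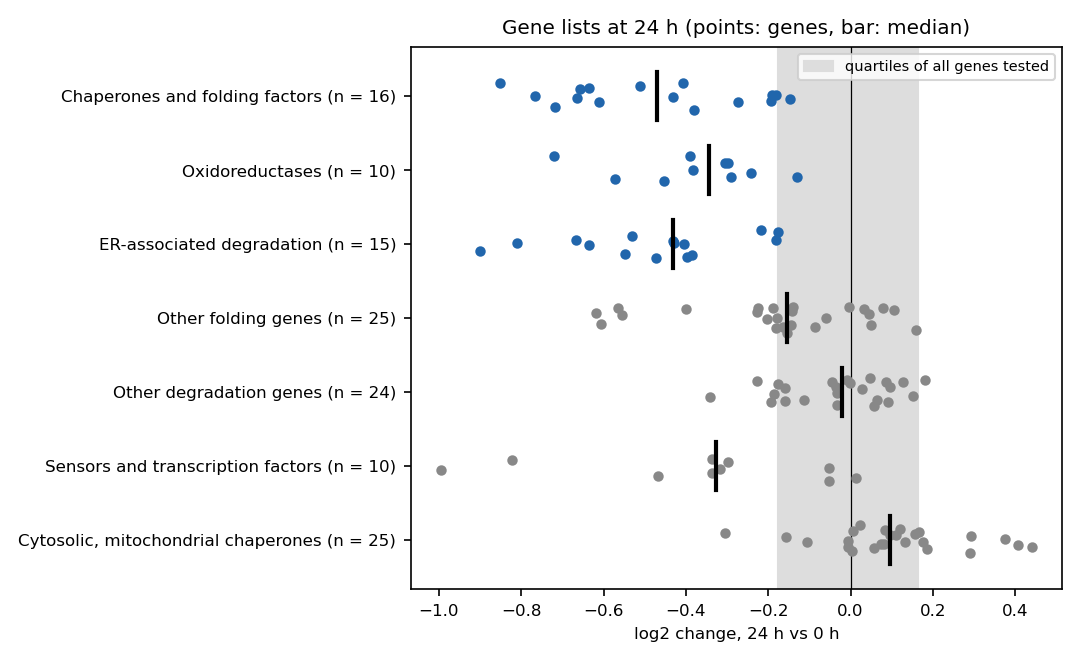
Log2 change at 24 h against 0 h (horizontal) for each gene of 7 lists (rows), with a black bar at each list's median. The grey band spans the quartiles of all genes tested, from -0.176 to 0.164. The 3 member classes have medians of -0.47, -0.34 and -0.43, all left of the band, and the cytosolic and mitochondrial chaperones have a median of 0.10 inside it.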

How the data were processed

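RNA of 8 LNCaP libraries was sequenced by the study in read pairs. According to its methods, the authors trimmed reads with Cutadapt, aligned them to GRCh38 with STAR and counted them per GENCODE gene with featureCounts. The deposited values are raw counts per gene, with no normalization. How the counting treated strand, read pairs and reads with several matches is not given in the sources used here, so genes with shared exons or near-identical copies can share reads. According to the study's methods, a time-zero LNCaP replicate was left out for failing quality control. The second 0 h column carries a number that no 0 h label has, and it stands as a 0 h library with no number. Columns of the authors' own comparisons were not used.

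Genes were tested with edgeR 4.0.16 in R 4.3.3 (TMM normalization, filterByExpr, robust quasi-likelihood F test, 1 coefficient per time point, all 8 libraries). The biological coefficient of variation was 5.59%. Adjusted p values are Benjamini-Hochberg values over all 21071 genes tested, and passing means at most 0.05. The study's thresholds add a fold change of at least 1.5. Log2 fold changes come from this fit, and CPM values are TMM-normalized. Each standard error (SE) was derived from the log2 change and F statistic of this fit, and the 95% intervals were built from that SE. Replicates were compared by a chi-square test over genes, and the statistic per degree of freedom was 5.32 to 15.2 in 7 pairs within groups, so each library was counted once. Exon overlaps were taken from GENCODE 44, whose coordinates equalled the file's for 30996 of the 30996 genes of the same version, among them 34 of the 41 members.

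The members and gene lists were chosen with earlier results of these data known. The text names every member. Values per library are given for the 3 members of each class with the smallest p at 24 h against 0 h and the 1 with the largest, and for members chosen after their values were seen (DNAJB9, CANX, ERO1A, SYVN1, SDF2L1, PDIA5 and TXNDC11). Alternatives were RLE and upper-quartile normalization, no filter, a mean of at least 100 counts, DESeq2 1.42.0, the compared time points alone, the replicate number as a block, and each library left out in turn.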

Additional observations from a re-analysis of the deposited data

How the results depend on the processing

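No member passed as higher in any comparison, and no member that passed changed its direction, under the alternatives listed with the methods. Without 1 library at a time, 20 to 33 members were lower at 12 h than at 0 h, and 0 to 3 of them by at least 1.5-fold. Between 24 h and 0 h these counts were 32 to 40 and 8 to 14, and 10 to 21 members were lower at 24 h than at 12 h. The number with unequal steps was 0 to 8 (DESeq2 gave 3). The class medians of the log2 change ran from -0.291 to -0.212 (chaperones, 12 h against 0 h), from -0.326 to -0.246 (degradation factors, 12 h against 0 h), from -0.425 to -0.268 (oxidoreductases, 24 h against 0 h) and from -0.485 to -0.384 (degradation factors, 24 h against 0 h). Without 0 h replicate 1 and 24 h replicate 1 together, chosen after seeing the data, 17 members were lower at 12 h, 6 were lower by at least 1.5-fold at 24 h, and the medians were -0.246 for oxidoreductases and -0.358 for degradation factors at 24 h and -0.207 for chaperones and -0.241 for degradation factors at 12 h. This fit leaves 1 library at 0 h, whose spread is taken from the other groups, as do the fits without 1 of the 0 h libraries. Of the calls that passed, 20 of 33 at 12 h and 32 of 40 at 24 h passed under every alternative listed with the methods. Between 24 h and 12 h, 10 of 20 did. The fit without both libraries is not among those alternatives. The replicate number as a block was fitted only between 24 h and 12 h, since the second 0 h library was used without a number. Libraries of the same number had correlations of 0.102, 0.028 and 0.0261 of their deviations, so the numbers were not taken to pair the samples, and the block gave 21 members lower and 865 genes, against 663 genes in the same 6 libraries without it.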
